A study of Mus musculus with 10 samples.

Results

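The 10 genes described here encode the D-type cyclins (Ccnd1, Ccnd2, Ccnd3), the kinases they activate (Cdk4, Cdk6) and the inhibitors of these kinases (Cdkn1a, Cdkn1b, Cdkn1c of the CIP/KIP family, Cdkn2c and Cdkn2d of the INK4 family). They were taken by gene symbol from a table of 25178 genes, and all 10 were found and all 10 passed the filter on low counts, which kept 14674 genes. The samples were bone marrow depleted of lineage-positive cells, from 5 female and 5 male C57/BL6 mice at steady state. Marrow was flushed from a single hindlimb per mouse, cells with markers of mature lineages were removed on magnetic beads, and total RNA was sequenced in bulk with 1 library per mouse. No mouse carried a labelled allele or treatment, sex is the only factor, and the sources used here give no age.

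D-type cyclins rise when a cell receives growth signals and bind Cdk4 or Cdk6. The active kinases phosphorylate the retinoblastoma protein and its relatives, which releases E2F factors and lets the cell pass from the gap phase into DNA replication. INK4 proteins bind Cdk4 and Cdk6 and keep the cyclin away, whereas CIP/KIP proteins bind cyclin-kinase complexes and chiefly block Cdk2. In marrow, loss of Cdkn1c or of several inhibitors together draws stem cells out of quiescence, Cdk6 is needed for stem cells to leave it, and Ccnd3 sets how many divisions red cell precursors make.

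Total counts per library ran from 20754101 to 24759687. The labelled sexes were matched by Xist (805 to 1189 counts in females, 0 to 4 in males) and Ddx3y (0 counts in every female, 579 to 867 in males). The progenitor genes Kit and Cd34 were present in every library, at 151 to 341 CPM (counts scaled to the library total times its TMM factor) and 82.0 to 138 CPM. Transcripts of maturing cells were present too and were uneven. The summed level of 11 mature neutrophil markers ran from 282 to 1050 CPM among females and from 227 to 9352 CPM among males, with male replicates 1 and 2 highest. None of these 11 markers was at 0 counts over the series. The 12 erythroid markers summed to between 8156 and 13080 CPM in females and between 15150 and 52150 CPM in males. The 10 megakaryocyte markers summed to between 1734 and 2288 CPM in females and between 1306 and 1566 CPM in males. For both of these sums the sexes did not overlap. They did overlap for the 8 erythroid markers other than hemoglobin (4645 to 6415 and 5839 to 7148 CPM). The sums were not tested for a difference between the sexes. Of single markers, the edgeR test described below called 0 of 12 erythroid and 0 of 9 megakaryocyte genes tested. Over all genes tested, 1.93% were without overlap of the sexes. The part of these differences in the levels of the members was not tested. In bulk RNA, fewer cells of a type and less RNA per cell cannot be told apart.

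No member passed the test for a difference between the sexes. The edgeR quasi-likelihood test called 0 of 10 members at an adjusted p under 0.05, DESeq2 also called 0, and 1 member, Cdkn2d, had an unadjusted edgeR p under 0.05. Over all genes the edgeR test called 0.0545% and DESeq2 60 of 17827, and 9.17% had an unadjusted edgeR p under 0.05. In 0 of 10 members were the females and males without overlap, against 1.93% of all genes tested. The median log2 fold change of the members, female against male, was -0.0026, with 5 positive and 5 negative values, and that of all genes tested was -0.01. The median size of the log2 fold change, sign ignored, was 0.10 in the members and 0.18 over all genes.

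**Figure D1:**
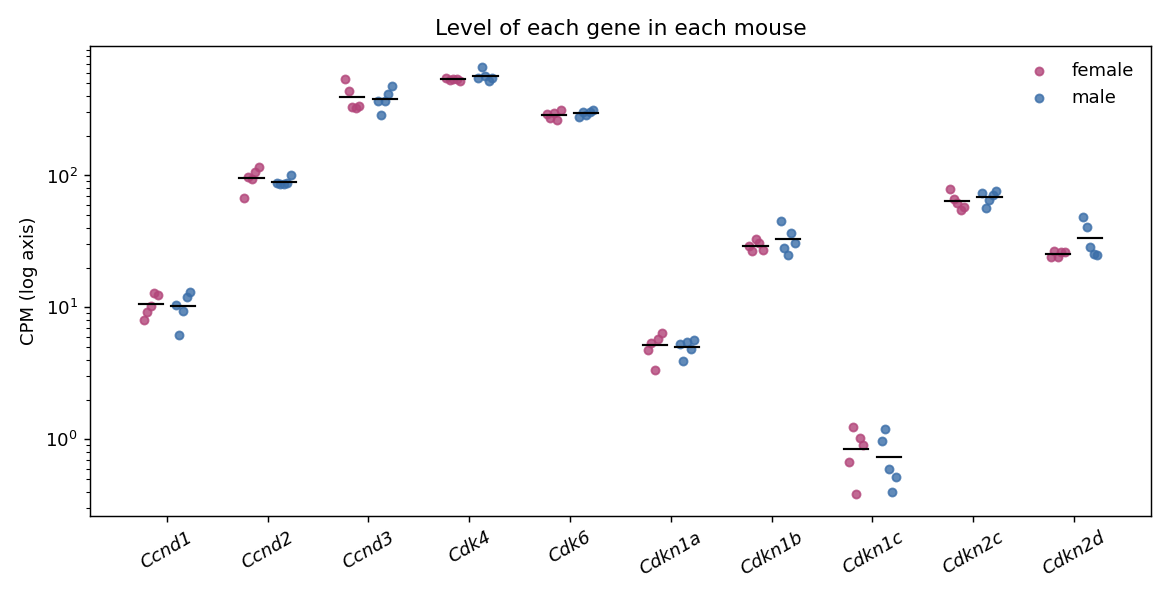
Level of each of the 10 genes in each mouse in CPM (log axis), females left and males right within each gene, points in order of replicate number and lines at the means of 5 mice. Females and males overlap for every gene, from Cdkn1c at 0.385 to 1.24 CPM to Cdk4 at 516 to 660 CPM.

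Promoter sequence from RefSeq (GRCm38.p6) was matched for 7 of the 10 members, with 10 windows in all. Ccnd1, Ccnd2 and Cdkn1c had no entry. Windows of 250 bases before each start were searched on both strands for the E-box CACGTG, a site of MYC and related factors, for GATA sites (AGATAA or AGATAG or TGATAA or TGATAG), for E2F sites (TTTCGCGC or TTTGGCGC or TTTCCCGC or TTTGCCGC) and for the p53 site. The windows of the kinases are shown because the kinases were the most even members across mice and their windows hold the E-boxes. The upstream start of Cdkn1a is shown because it holds the p53 site, and p53 is the best known activator of this gene. Capitals mark every match to a searched motif, and each sequence reads 5′ to 3′ in the direction of transcription.
Cdk4 (chr10:127063285-127063534, plus strand): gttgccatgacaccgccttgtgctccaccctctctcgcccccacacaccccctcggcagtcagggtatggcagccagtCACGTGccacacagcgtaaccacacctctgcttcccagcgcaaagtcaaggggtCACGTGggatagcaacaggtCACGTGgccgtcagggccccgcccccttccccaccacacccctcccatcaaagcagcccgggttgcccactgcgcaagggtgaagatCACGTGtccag
Cdk6 (chr5:3343643-3343892, plus strand): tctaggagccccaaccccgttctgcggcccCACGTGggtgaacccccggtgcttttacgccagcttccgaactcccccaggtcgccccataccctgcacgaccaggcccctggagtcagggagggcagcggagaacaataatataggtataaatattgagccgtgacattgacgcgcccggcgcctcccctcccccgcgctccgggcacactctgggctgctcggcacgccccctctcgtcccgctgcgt
Cdkn1a, upstream start (chr17:29090729-29090978, plus strand): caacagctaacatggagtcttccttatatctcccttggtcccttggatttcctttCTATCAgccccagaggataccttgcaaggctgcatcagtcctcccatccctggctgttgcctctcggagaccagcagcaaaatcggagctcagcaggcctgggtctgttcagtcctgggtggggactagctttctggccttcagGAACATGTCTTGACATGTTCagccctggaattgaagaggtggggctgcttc
The Cdk4 window held 4 copies of CACGTG, beginning 172, 118, 98 and 11 bases before the start, and the Cdk6 window held 1. At least 1 copy was found in 6.02% of all 32851 promoter windows of this length and at least 4 copies in 7 of them (0.0213%). The window of the upstream Cdkn1a start held a pair of abutting p53 half-sites with at most 1 mismatch. The pair begins 51 bases before that start, and such a pair was found in 0.0761% of all windows. The window of the downstream Cdkn1a start (chr17:29093519-29093768) held no match to a searched motif. This form of the p53 search was chosen after the sequence was seen. The upstream Cdkn1a window also held the only GATA match of the 10 windows (the capital run nearest the left end), against 26.5% of all windows. E2F letters were found in 0 of the 10 windows and in 1.86% of all. The counts are per gene, so transcripts from alternative starts of Cdkn1a, Cdkn2c or Ccnd3 were not separated.

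Cdk4 and Cdk6, the kinases, were abundant and the least variable members. Cdk4 (chromosome 10, 127063534 to 127067920) was at 549, 528, 535, 543 and 516 CPM in females 1 to 5 and at 545, 660, 572, 516 and 550 CPM in males 1 to 5. The sexes overlapped, and male 2 stood above all other mice. The means were 534 ± 12.9 and 568 ± 54.9 CPM (SD, n = 5 each), a log2 fold change of -0.09 (SE 0.08, 95% interval -0.27 to 0.09, edgeR adjusted p = 0.594). Without male 2 it was -0.03. Male 2 also had the highest summed level of ribosomal protein genes, at 184400 CPM against 100200 to 119500 CPM in the other libraries. Its mitochondrially encoded genes summed to 35590 CPM, against at most 25580 CPM elsewhere, and its TMM factor was the lowest (0.886). The part of these differences in the values of Cdk4 and of the other members in male 2 was not tested.

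Cdk6 (chromosome 5, 3341485 to 3531008) was at 293, 275, 300, 263 and 312 CPM in females 1 to 5 and at 279, 300, 289, 304 and 314 CPM in males 1 to 5. The highest library exceeded the lowest by a factor of 1.19, the narrowest range of the 10 members. Between the sexes its log2 fold change came to -0.04 (SE 0.08, adjusted p = 0.778) and its 95% interval ran from a fold of 0.866 to one of 1.09. Without single libraries it lay between -0.07 (without female 5) and -0.01 (without female 4). Its sign turned with scaling to library totals alone (0.03), a setting that moved the median of all genes from -0.01 to 0.06. Per kilobase of exon, the ratio of Cdk6 to Cdk4 counts was 0.126 ± 0.0104 in females and 0.122 ± 0.0125 in males, with overlap.

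The spread between mice of the same sex, as a coefficient of variation (CV), was 5.73% for Cdk6 and 7.24% for Cdk4. Among the 500 genes nearest in level these values stood at the 8.58th and 17.6th percentile. At the other end, Cdkn2d (25.2%) stood at the 87.0th percentile and Ccnd3 (20.8%) at the 80.0th. Cdkn1c had the widest spread (41.8%). Counting error alone, at its mean of 18 counts per library, gives a CV of 23.6%, and the 2 CVs cannot be subtracted from each other.

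**Figure D2:**
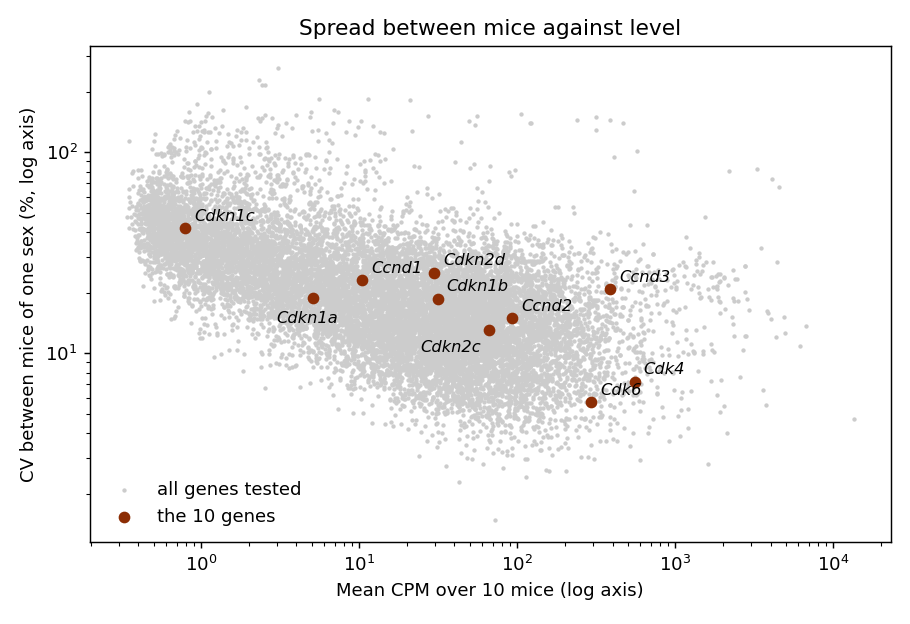
Coefficient of variation between mice of the same sex (%, log axis) against mean CPM (log axis), for the 10 genes (labelled) and all 14674 genes tested (grey). Cdk6 (5.73%) and Cdk4 (7.24%) lie low among genes of their level, and Ccnd3 (20.8%) and Cdkn2d (25.2%) lie high.

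Ccnd3 was the leading D cyclin in every mouse, and the spread of its share among females was wider than the difference between the sexes. Counts per kilobase of exon were used to compare the genes. Ccnd3 made up 87.4, 80.4, 75.6, 72.6 and 71.8% of D cyclin counts in females 1 to 5 and 78.5, 75.9, 78.9, 79.8 and 80.1% in males 1 to 5. The means were 77.5 ± 6.45% and 78.6 ± 1.63% (SD, n = 5 each), and the sexes overlapped. Ccnd2 held 10.2 to 23.3% and Ccnd1 2.43 to 5.33% over the 10 mice. The lowest share of both was in female 1, the library with the highest share of Ccnd3.

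**Figure D3:**
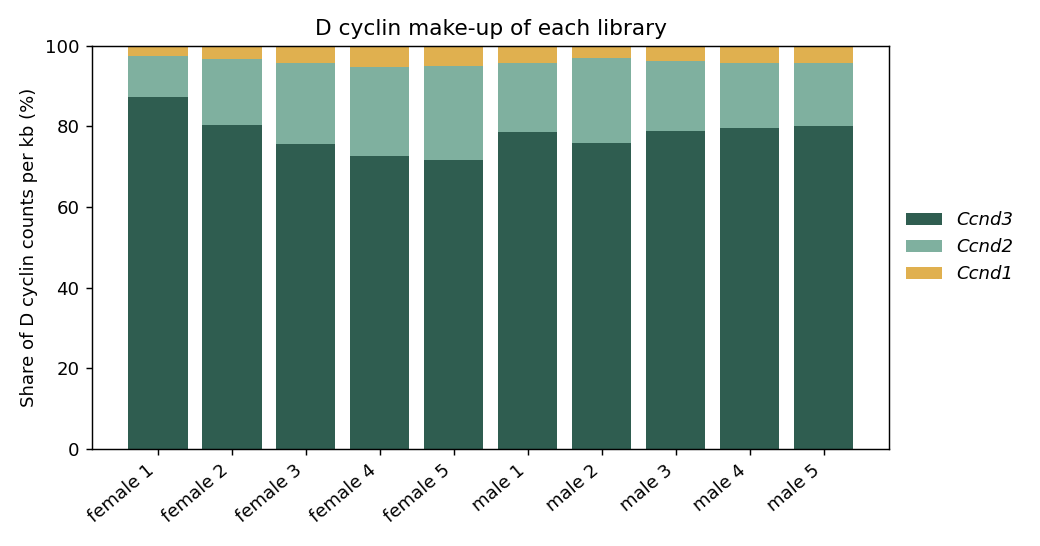
Share of Ccnd1, Ccnd2 and Ccnd3 in the D cyclin counts per kilobase of exon (%) in each library, stacked to 100. The Ccnd3 share is 87.4% in female 1 and 71.8% in female 5, and the 5 males lie between 75.9 and 80.1%.

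Ccnd3 (chromosome 17, 47505051 to 47599691) was at 536, 439, 333, 326 and 336 CPM in females 1 to 5 and at 369, 289, 367, 412 and 474 CPM in males 1 to 5. Females 1 and 2 and males 4 and 5 were the 4 highest libraries. Female against male, the log2 fold change was 0.04 (SE 0.16, 95% interval -0.31 to 0.40, adjusted p = 0.903), and it was -0.09 without female 1 and -0.04 without male 2. Other transcripts were high in some of these libraries. Tfrc, the transferrin receptor of red cell precursors, was highest in female 1 (559 CPM), female 2 (507 CPM) and male 5 (474 CPM) and lowest in male 2 (319 CPM). Col1a1, a collagen of bone-forming cells, was at 1394 CPM in female 1, 835 CPM in female 2 and 1612 CPM in male 5, against 82.0 to 518 CPM in the other 7 libraries. Male 4 stood apart for neither gene, with Tfrc at 459 CPM (457 CPM in male 3) and Col1a1 at 454 CPM (518 CPM in female 5). Tfrc and Col1a1 were singled out after their values were seen, and their part in the level of Ccnd3 was not tested. The whole stromal list, 6 markers of which none was at 0, summed to between 310 and 2436 CPM in females and between 358 and 2753 CPM in males. The 8 erythroid markers other than hemoglobin summed to between 4645 and 6415 CPM in females and between 5839 and 7148 CPM in males. The highest of these sums was in male 2, the library lowest in Ccnd3 and in Tfrc, so this list did not follow the order of Tfrc. Ccnd3 shares 361 exon bases with Bysl on the opposite strand, and since no source used here says whether strand was used in counting, reads there cannot be told apart. Bysl lay between 91.2 and 134 CPM and was not highest in female 1 (119 CPM).

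Ccnd2 (chromosome 6, 127125162 to 127152193), the D cyclin induced by cytokines in many blood progenitors, was at 67.0, 96.5, 94.7, 107 and 117 CPM in females 1 to 5. In males 1 to 5 it was at 87.3, 85.7, 86.4, 88.0 and 100.5 CPM, so that the 5 males lay inside the female range. Among females the SD was 18.6 CPM and among males 6.17 CPM, around means of 96.3 and 89.6 CPM. In the edgeR fit its log2 fold change came to 0.10 (SE 0.13, adjusted p = 0.685). It was 0.03 without female 5, 0.07 without female 4 and 0.21 without female 1 (adjusted p = 0.572).

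Ccnd1 (chromosome 7, 144929931 to 144939925) was the rarest D cyclin, at 8.0, 9.17, 10.2, 12.9 and 12.5 CPM in females 1 to 5 and at 10.4, 6.18, 9.48, 12.1 and 13.1 CPM in males 1 to 5. Male 2 was lowest. Females against males, its log2 fold change was 0.04 (SE 0.20, 95% interval -0.40 to 0.48, adjusted p = 0.928), and it changed sign without female 4, female 5 or male 2. Ccnd1 shares 1100 of its 4709 exon bases with the opposite-strand gene LTO1, which had 3348 counts over the series against 2403 for Ccnd1. With the strand setting not given, how far this overlap affects the level of Ccnd1 cannot be told.

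Cdkn2d, an INK4 inhibitor (p19), had the smallest p-value of the members, and its difference rested on 2 male libraries. Cdkn2d (chromosome 9, 21288410 to 21291407) was at 24.3, 26.7, 24.0, 26.5 and 26.5 CPM in females 1 to 5 and at 48.8, 40.5, 28.8, 25.6 and 25.0 CPM in males 1 to 5. Males 1 and 2 stood above all other mice, male 3 lay just above the females, and males 4 and 5 lay inside the female range. The means were 25.6 ± 1.34 and 33.7 ± 10.5 CPM (SD, n = 5 each), a log2 fold change of -0.40 (SE 0.18, unadjusted p = 0.0439, edgeR adjusted p = 0.506). Cdkn2d ranked 1169 of 14674 genes by p. Without males 1 and 2 the log2 fold change was -0.05 (adjusted p = 0.9997), an alternative chosen after the values were seen, and it was -0.23 without male 1 and -0.32 without male 2.

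Males 1 and 2 were also the highest libraries for several lists of maturing or other blood cells. The 11 mature neutrophil markers summed to 9352 CPM in male 1 and 2885 CPM in male 2, and to at most 1462 CPM in the other libraries. S100a8, a calprotectin gene and the marker named here after its values were seen, was at 1678 and 599 CPM in these libraries and at 31.0 to 229 CPM in the others. Males 3 and 4, with marker sums of 1462 and 1460 CPM, had Cdkn2d at 28.8 and 25.6 CPM. Male 5, with the lowest marker sum of all mice (227 CPM), had Cdkn2d at 25.0 CPM. Males 1 and 2 were highest, too, for the 12 erythroid markers (52150 and 33340 CPM, against at most 27400 CPM elsewhere) and for the 7 mast cell, basophil and eosinophil markers (3372 and 3056 CPM, against at most 2526 CPM). The same held at low levels for the T and natural killer list (83.9 and 73.6 CPM, against at most 53.4 CPM) and the B lineage list (42.9 and 26.9 CPM, against at most 24.6 CPM). The erythroid lead was small without hemoglobin. The 8 other erythroid markers summed to 6480 and 7148 CPM in males 1 and 2, against at most 6415 CPM elsewhere. The part of any of these cell types in the level of Cdkn2d was not tested.

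**Figure D4:**
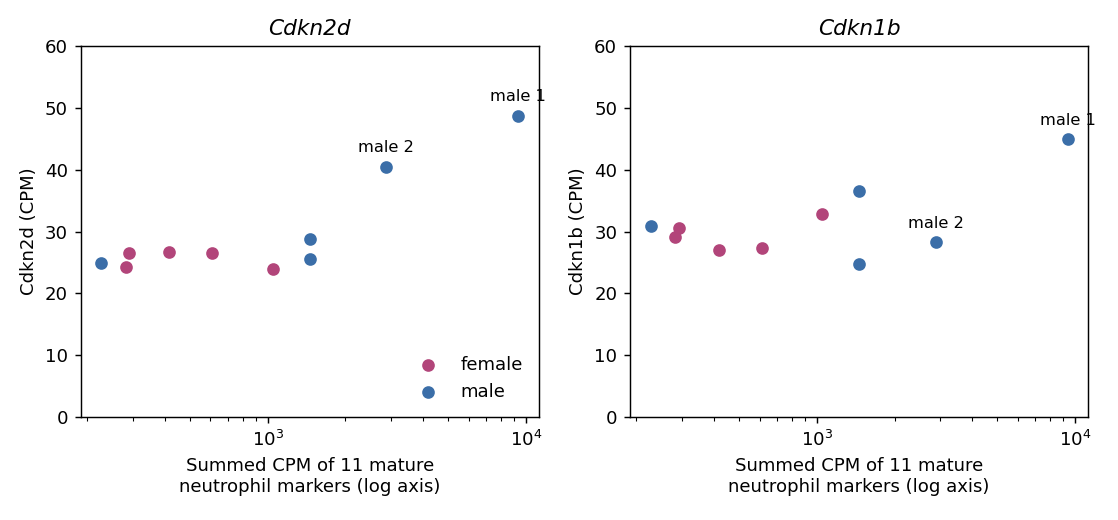
Level of Cdkn2d (left) and Cdkn1b (right) in CPM against the summed CPM of 11 mature neutrophil markers (log axis), with 1 point per mouse. Cdkn2d is at 48.8 and 40.5 CPM in males 1 and 2 and at most 28.8 CPM elsewhere, and Cdkn1b is highest in male 1 (44.9 CPM).

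Cdkn2c, the INK4 inhibitor p18 (chromosome 4, 109660876 to 109667189), had the highest mean level of the inhibitors per kilobase of exon, and Cdkn2d exceeded it on that scale in males 1 and 2. It was at 78.6, 66.8, 62.2, 54.6 and 57.4 CPM in females 1 to 5 and at 74.1, 57.0, 64.8, 71.0 and 75.9 CPM in males 1 to 5. Female 1, male 5 and male 1 were highest, and females 4 and 5 and male 2 were the 3 libraries below 60 CPM. Its log2 fold change was -0.10 (SE 0.12, 95% interval -0.36 to 0.15, adjusted p = 0.668), and it lay between -0.19 (without female 1) and -0.05 (without female 4) when single libraries were left out. The other INK4 genes, Cdkn2a and Cdkn2b, had 7 and 28 counts over all 10 libraries and were too low to test.

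Cdkn1b (p27, chromosome 6, 134920401 to 134925513), which holds back cyclin E with Cdk2, was at 29.2, 26.96, 32.9, 30.6 and 27.4 CPM in females 1 to 5 and at 44.9, 28.3, 24.8, 36.6 and 30.8 CPM in males 1 to 5. Males 1 and 4 stood above the females, and male 3 was the lowest of the 10 mice. Between the sexes its log2 fold change was -0.17 (SE 0.15, 95% interval -0.49 to 0.15, adjusted p = 0.581), and it was -0.04 without male 1 and -0.26 without male 3. Male 2, which shared the high level of Cdkn2d, had Cdkn1b at 28.3 CPM, inside the female range.

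Cdkn1a (p21, chromosome 17, 29090976 to 29100727), the inhibitor that p53 induces after DNA damage, was low in all mice. It was at 4.75, 5.41, 3.38, 5.76 and 6.45 CPM in females 1 to 5 and at 5.29, 3.89, 5.46, 4.81 and 5.63 CPM in males 1 to 5. The 5 males lay inside the female range. In the edgeR fit its log2 fold change was 0.04 (SE 0.18, 95% interval -0.36 to 0.44, adjusted p = 0.926), and its sign changed without female 4, female 5 or male 2. Of 11 p53 targets tested 0 were called (6 positive, 5 negative, median log2 fold change 0.10), and 1, Trp53inp1, had an unadjusted edgeR p under 0.05. Trp53inp1 was at 7.95 ± 1.80 CPM (females) and 12.4 ± 5.99 CPM (males), with an adjusted p of 0.506 (SD, n = 5 each), with male 1 at 22.7 CPM. Mdm2, the ligase that degrades p53, was at 38.8 ± 2.03 and 36.3 ± 5.32 CPM.

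Cdkn1c (p57, chromosome 7, 143458339 to 143461050), an imprinted inhibitor expressed from the maternal allele and characteristic of quiescent stem cells, was the rarest member. It had 180 counts over the series, 9 to 30 per library. It was at 0.679, 1.24, 0.385, 1.03 and 0.900 CPM in females 1 to 5 and at 0.965, 1.19, 0.598, 0.401 and 0.516 CPM in males 1 to 5. Females against males, its log2 fold change came to 0.22 (SE 0.38, adjusted p = 0.774) with a 95% interval from a fold of 0.658 to one of 2.05. Without single libraries it ran from 0.04 (without female 2) and 0.06 (without male 4) to 0.40 (without female 3) and 0.45 (without male 2), so the sign held and the size did not. Of 7 genes of its imprinted domain and neighbourhood that were tested, 0 were called, with 2 positive and 5 negative. The smallest p was that of Kcnq1ot1, the long noncoding RNA that silences the domain on the paternal allele, at 1.86 ± 0.818 CPM (females) and 3.90 ± 3.50 CPM (males; log2 fold change -1.06, adjusted p = 0.506). Male 2 held Kcnq1ot1 at 10.1 CPM, and the other 4 males at 2.06 to 2.95 CPM.

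**Figure D5:**
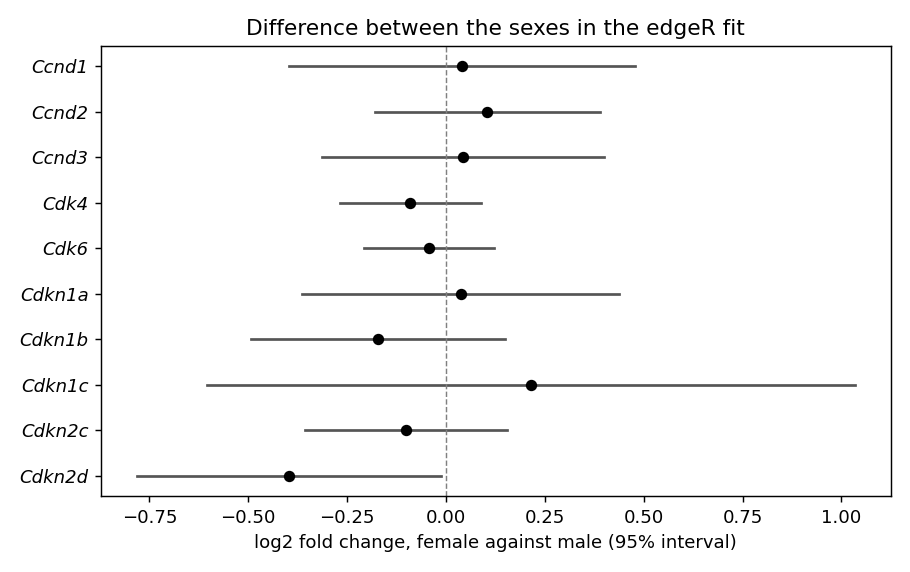
Log2 fold change of each gene, female against male, in the edgeR fit (points) with its 95% interval (lines, not adjusted for multiple tests). The Cdkn2d interval lies below 0 (-0.78 to -0.01), the 9 others include 0, and the Cdkn1c interval is the widest.

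Levels can be compared between genes per kilobase of exon. On this scale (CPM per kb, over 10 mice) Cdk4 was highest at 170 ± 12.8, followed by Ccnd3 at 44.2 ± 8.72, Cdkn2c at 24.7 ± 3.15, Cdk6 at 20.9 ± 1.18 and Cdkn2d at 18.8 ± 5.24. Below these stood Ccnd2 at 9.88 ± 1.44, Cdkn1b at 6.86 ± 1.28, Ccnd1 at 2.21 ± 0.482, Cdkn1a at 1.43 ± 0.256 and Cdkn1c at 0.388 ± 0.155. The order of neighbours held in all 10 libraries for 6 of the 9 pairs. Cdkn2c exceeded Cdk6 in 8 libraries, Cdk6 exceeded Cdkn2d in 8, and Ccnd2 exceeded Cdkn1b in 9, so these neighbours overlapped. Exon lengths came from the union of annotated transcripts. With the longest coding length instead, Cdk4 and Ccnd3 were again first and second, but Cdk6 stood above Cdkn2c and Ccnd2 above Cdkn2d. Cdk4 shares 641 exon bases with the opposite-strand gene Tspan31, whose counts were 7.28% of those of Cdk4.

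The genes most alike in pattern were sought among 11359 genes with a mean of at least 1 CPM, by Pearson's r of log2 CPM over the 10 libraries. The best matches of so many genes are high by selection, so no test is given. Ccnd3 was matched by Pigq (r = 0.96, Spearman's rho 0.94) and Rab3il1 (0.95), and Cdkn2c by Tmem248 (0.96, rho 0.98) and Fam117a (0.92). Ccnd1 was matched by Limk2 (0.97) and Ppfibp1 (0.96), and Ccnd2 by Tle6 (0.92) and Snx9 (0.90). Cdk4 was matched by Mrpl17 and Cenpw (0.98 for each), Cdk6 by Znrf1 (0.83) and Dcp1b (0.82). Cdkn1b was matched by Golph3l (0.94) and Tmx4 (0.93), and Cdkn1a by Il15ra (0.85) and Htr1b (0.84). The matches of Cdkn2d, Ube2d2a (0.98) and Akap7 (0.97), rested on males 1 and 2, without which r was 0.67 and 0.70. For the other 16 pairs r without these libraries was 0.818 or higher.

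The rest of the pathway held no called gene either. Of 107 further genes tested in 10 lists, 0 were called by edgeR or DESeq2, 6 had an unadjusted edgeR p under 0.05, and in 0 were the sexes without overlap. Over all genes tested, edgeR called 0.0545%, 9.17% had an unadjusted p under 0.05 and 1.93% were without overlap. DESeq2 called 60 of 17827 genes. Among the 107 genes, positive fold changes numbered 53 and negative 54, with a median of -0.0012. Among the targets of the kinases, 0 of 13 pocket protein, E2F and DP genes were called (8 positive, 5 negative). Rb1, the substrate for which the pathway is named, was at 67.9 ± 8.93 CPM (females) and 68.9 ± 12.7 CPM (males). E2f6, a repressive E2F, was at 76.4 ± 3.73 and 67.96 ± 5.33 CPM, and E2f2, an activating one, at 90.3 ± 19.7 and 117 ± 27.4 CPM (adjusted p = 0.506 for both). Of 6 genes listed as DREAM and MuvB subunits, 2 were positive and 4 negative. MuvB subunits repress cell cycle genes in quiescent cells together with pocket proteins. This does not describe Mybl2, also on the list, which had a log2 fold change of 0.06.

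Downstream of the D cyclins, the E and A cyclins and Cdk2 had 2 positive and 2 negative values. Ccne1 was at 151 ± 20.7 CPM (females) and 159 ± 14.2 CPM (males), and Cdk2 at 78.5 ± 7.58 and 79.3 ± 13.7 CPM. Of 16 S phase genes 9 were positive and 7 negative, and of 16 mitosis genes 8 and 8, with median log2 fold changes of 0.02 and 0.01. Among 7 genes listed for the activation of cyclin-dependent kinases in general, not of Cdk4 and Cdk6 alone, 1 was positive and 6 were negative (median -0.19). The phosphatase gene Cdc25b was at 38.2 ± 3.13 CPM (females) and 53.5 ± 15.5 CPM (males; log2 fold change -0.48, adjusted p = 0.506), with males 1, 4 and 5 above all females. Without males 1 and 2 the median of these 7 genes was -0.03.

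Of 13 genes that degrade p27 or D cyclins 8 were positive and 5 negative (median 0.12). Cul4a, a scaffold of cullin-RING ubiquitin ligases, had the smallest p of this list, at 223 ± 15.4 CPM (females) and 182 ± 31.7 CPM (males; log2 fold change 0.29, adjusted p = 0.506). Cks1b, the cofactor that lets the SCF ligase recognise p27, was at 124 ± 6.06 CPM (females) and 154 ± 37.3 CPM (males), and its partner Skp2 at 37.5 ± 3.35 and 32.7 ± 5.46 CPM (adjusted p = 0.506 and 0.511). Of 14 transcription factors known to act on the members 7 were positive and 7 negative. Myc, which activates Cdk4 and Ccnd2, had the smallest p of the 107 genes, at 204 ± 13.8 CPM (females) and 169 ± 18.8 CPM (males; log2 fold change 0.27, SE 0.09, adjusted p = 0.506). Male 3, at 199 CPM, lay inside the female range of 189 to 222 CPM, and the other 4 males lay at 146 to 169 CPM. Cdk4 and Cdk6, whose windows hold E-boxes, had log2 fold changes of -0.09 and -0.04, and Ccnd2 one of 0.10, all within 2 SE of 0. The part of Myc in the level of any of these genes was not tested.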

How the data were processed

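The authors deposited raw read counts per Ensembl gene for 10 libraries and, beside them, normalized values (signal). Tools are listed in the submitters' processing notes as STAR, featureCounts and DESeq, and builds as GRCm38.p6 and mm10. No source used here gives their versions, the annotation release or the strand setting. In each library the deposited signal was the raw count divided by a single size factor, and the counts were used. Genes were filtered with filterByExpr, scaled by TMM and fitted with edgeR 4.0.16 (R 4.3.3; robust glmQLFit, glmQLFTest, sex as the only term, Benjamini-Hochberg over all genes tested). The procedure was tested on simulated counts in which 200 genes were changed. It called 75% of the genes with a log2 fold change of size 1 and 92% of those of size 2. Of 174 genes called, 7 were unchanged. Smaller changes were not simulated. SE is the size of the log2 fold change over the square root of F, and the 95% intervals use the total degrees of freedom of the fit. Coordinates and exon lengths come from GENCODE vM21 (GRCm38), in which 25116 of 25178 gene IDs were found. Alternatives were DESeq2 1.42.0, other scalings and filters, a replicate block and leaving out libraries. The members and lists were chosen with earlier results of these data known. The text names all members, the genes of smallest p in each list and the genes most alike in pattern, and says where another gene was chosen after its values were seen.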

Additional observations from a re-analysis of the deposited data

Results flagged for a closer look

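Ccnd2 in male replicate 5, at 100.5 CPM, stood apart from the other 4 males, which lay between 85.7 and 88.0 CPM. The gap was 0.844 of the male range. It was the only mouse to stand apart in this way among 20 groups of 5 (10 genes in each sex), and chance alone flags about 1 group in 20. The value lies inside the female range of 67.0 to 117 CPM.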

How the results depend on the processing

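The members called numbered 0, and so did the other pathway genes called, under all 18 alternatives: 3 other scalings, 2 other filters, DESeq2, the replicate block, each of 10 libraries left out, and males 1 and 2 left out together (the last chosen after seeing the data). The genes called over the whole table, 8 in the main fit, were 60 with DESeq2, 5 with the replicate block and 6 to 10 without single libraries. Same-numbered libraries of the sexes did not deviate together (r between -0.302 and -0.0071). The sample titles link them by number alone, and r cannot tell whether they shared a day or preparation. Signs near 0 turned. Without single libraries the log2 fold change lay between -0.0928 and 0.142 for Ccnd1, between -0.0926 and 0.133 for Ccnd3 and between -0.0575 and 0.157 for Cdkn1a, and without males 1 and 2 together it was -0.131, -0.0874 and -0.0417. Cdk6 was at 0.0317 with library totals alone. Cdkn1c had 0.74 without males 1 and 2, and the filter at 1 CPM in 5 libraries removed it. Where signs or values moved, the cause was not tested. Without males 1 and 2 the median of the pocket protein, E2F and DP genes was -0.09, against 0.06 with them. At 9 to 30 counts per library Cdkn1c had a counting error of 23.6% (as a CV), beside a CV between mice of 41.8%.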
